A study of Mus musculus with 30 samples.

Results

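The bone morphogenetic protein (BMP) pathway was followed as a list of 41 genes in RNA sequencing of mouse heart and white adipose tissue, and all 41 were found by their symbols among the 36558 gene IDs of the deposited table. The list held 8 ligands, 10 receptors and co-receptors, 6 SMAD transducers and inhibitors, 9 antagonists and modulators, and 8 target genes. The mice were male C57BL/6J animals that had received an adeno-associated virus of serotype AAV8 carrying either F11, the gene of coagulation factor XI, or green fluorescent protein (GFP). Every group was kept for 7 weeks on a high-fat diet combined with l-NAME, which blocks nitric oxide synthase, and tissues were collected when the mice were 15 weeks old. The groups compared here were 7 F11 hearts, 6 GFP hearts, 8 F11 adipose samples and 8 GFP adipose samples. A further GFP heart named in the labels had no counts among the deposited values. No group without the diet or without a vector was part of the comparison, and the promoter that drove the vectors is not given in the sources used here. AAV8 mainly transduces hepatocytes, and how much vector reached the heart and adipose tissue of these mice was not measured here. The labels do not state that each library came from a separate mouse, so the p-values measure the spread between these libraries.

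BMP ligands are secreted dimers that bring type I receptor kinases, such as BMPR1A, ACVR1 and ACVRL1, together with type II receptors, such as BMPR2, ACVR2A and ACVR2B. The type I receptors phosphorylate SMAD1, SMAD5 and SMAD9, which join SMAD4 and switch on target genes, among them the Id genes, while SMAD6 and SMAD7 act against the pathway and are themselves induced by it. Extracellular antagonists such as noggin, chordin, gremlin and follistatin bind the ligands. In the heart the pathway acts in endothelium, in valves and in atrial muscle, where BMP10 is made, and in fat it takes part in adipocyte commitment and browning. Transcript levels measure neither SMAD phosphorylation nor the cleavage of ligands.

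Library totals, in units of 1e6 estimated counts, were 28.06 to 33.02 in the F11 hearts, 25.75 to 30.59 in the GFP hearts, 16.76 to 26.33 in the F11 adipose libraries and 15.95 to 22.53 in the GFP adipose libraries. Mitochondrial transcripts held 32.3 to 34.2% of the counts in F11 hearts and 31.6 to 34.6% in GFP hearts. In adipose tissue they held 3.89 to 6.7% with F11 and 4.05 to 11.1% with GFP. Levels are given as CPM, counts per 1e6 counts of the library, after scaling by the TMM method over all 29 libraries. The F11 gene had 0 to 0.0898 CPM in F11 hearts and 0 to 0.501 CPM in GFP hearts, while in adipose tissue it had 0.388 to 11.96 CPM with F11 and 0 to 3.50 CPM with GFP, so heart transcripts give no check of the vector labels. Cardiomyocyte markers summed to between 65930 and 85395 CPM in hearts and stayed at or below 135.6 CPM in all but 1 adipose library, and adipocyte markers summed to at least 12368 CPM in every adipose library and at most 785 CPM in hearts. Several adipose libraries stood apart. The F11 library G-L142 held 10860 CPM of 12 epididymis markers, where no other adipose library passed 27.2 CPM, and the GFP library G-L140 held 6711 CPM of cardiomyocyte markers, 9.16% of the mean of the hearts. The sum of 8 hepatocyte markers was 3884 CPM in G-L145 and 2018 CPM in G-L146 with F11, and 4208 CPM in G-L136 and 1158 CPM in G-L137 with GFP, against 9.88 to 429 CPM in the other adipose libraries. It was 255 CPM in the GFP heart L2 and at most 17.2 CPM in the other hearts. Results in adipose tissue are therefore also given without these libraries where they touch a value.

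The promoters of 4 members are shown here because these genes carry the patterns described further on. Atoh8 and Eng went with Id1 over the 16 adipose libraries, Eng less closely without the 4 libraries with hepatocyte transcripts. Smad9 was among the SMADs higher in heart under both vectors, and Bmp10 is a ligand whose level ranged widely between hearts. Each line holds the 250 bases before the RefSeq gene start on GRCm38.p6, 5′ to 3′ on the strand of the gene, and capitals mark GGCGCC, a GC-rich element that BMP SMADs bind, or CAGAC, the SMAD box that SMAD4 binds, which reads GTCTG on the other strand. The windows are chr2:32646345-32646594 on the plus strand for Eng, chr6:72235578-72235827 on the minus strand for Atoh8, chr3:54755332-54755581 on the plus strand for Smad9 and chr6:87428744-87428993 on the plus strand for Bmp10.
Eng: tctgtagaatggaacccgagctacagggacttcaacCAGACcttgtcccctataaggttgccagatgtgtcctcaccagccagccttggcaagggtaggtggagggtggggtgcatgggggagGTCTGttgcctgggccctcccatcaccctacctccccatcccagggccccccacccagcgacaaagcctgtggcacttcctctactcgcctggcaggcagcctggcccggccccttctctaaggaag
Atoh8: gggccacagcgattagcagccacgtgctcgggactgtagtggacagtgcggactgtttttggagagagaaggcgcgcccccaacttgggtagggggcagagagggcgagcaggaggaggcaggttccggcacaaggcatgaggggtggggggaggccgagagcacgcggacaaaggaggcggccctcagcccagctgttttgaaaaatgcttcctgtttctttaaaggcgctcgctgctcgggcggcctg
Smad9: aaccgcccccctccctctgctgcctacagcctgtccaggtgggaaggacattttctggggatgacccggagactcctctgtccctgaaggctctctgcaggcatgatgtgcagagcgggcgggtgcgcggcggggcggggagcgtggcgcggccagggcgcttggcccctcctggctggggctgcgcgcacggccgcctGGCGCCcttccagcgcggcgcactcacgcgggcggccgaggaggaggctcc
Bmp10: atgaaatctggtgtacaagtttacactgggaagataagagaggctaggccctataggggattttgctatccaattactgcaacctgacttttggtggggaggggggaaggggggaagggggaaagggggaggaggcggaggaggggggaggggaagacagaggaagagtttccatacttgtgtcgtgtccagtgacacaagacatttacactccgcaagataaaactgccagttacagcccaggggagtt
The Eng window held CAGAC at position -214 from the start and again, on the other strand, at -127. The Smad9 window held GGCGCC at -51, and the Atoh8 and Bmp10 windows held neither motif. No match overlapped another. GGCGCC is its own reverse complement and was present in 7 of the 27 member promoters found in the RefSeq table (25.9%) and in 9.5% of all 27025 promoters of that length. CAGAC, searched on both strands, was present in 10 of the 27 (37.0%) and in 42.1% of all promoters. The G and C content had a median of 64.4% over the 27 member promoters and 52.0% over all, and a match in letters is a description only.

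Per kilobase of exon, the transcript with the highest mean level in each of the 4 groups was Eng, which encodes endoglin, a co-receptor of endothelial cells. It stood at 52.8 CPM per kb in F11 hearts, 57.8 in GFP hearts, 33.7 in F11 adipose tissue and 30.5 in GFP adipose tissue. With the longest transcript taken as the length, Eng was still first in both heart groups and ranked 2 in both adipose groups. In F11 hearts Id1 and Bmp10 followed at 30.5 CPM per kb each, then Twsg1 at 22.4 and Id3 at 22.2. In F11 adipose tissue the order after Eng was Id3 at 29.4 CPM per kb, Id1 at 21.4, the chordin-like antagonist Chrdl1 at 17.98 and Bmpr1a at 15.4. Most neighbours in these orders could not be separated: only 6 of 40 neighbouring pairs in F11 hearts, 7 in GFP hearts, 2 in F11 adipose tissue and 3 in GFP adipose tissue differed by more than the sum of their SDs. The lowest levels belonged to Grem1 in both heart groups, at 0.0182 CPM per kb with F11 and 0.0204 with GFP, and to Msx2 in both adipose groups, at 0.0213 and 0.0388 CPM per kb.

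The first question was whether the F11 vector changed the pathway in the heart. No member passed the threshold between F11 and GFP hearts, an edgeR quasi-likelihood test with a Benjamini-Hochberg adjusted p under 0.05 over 14684 genes. Of the members 38 were tested, since Bmpr1b, Nog and Grem1 fell under the count filter, and 0 were called, where 0.872% of all genes were, and 0 were called with any 1 of the 13 hearts left out. At an unadjusted p under 0.05 there were 10 members, 2 higher with F11 and 8 lower, where 6.22% of all genes were higher and 6.24% lower at that level. Those counts moved with single hearts, with 4 members lower without L1 or L40, 5 without L5 or L6, and 10 without L38. Higher members numbered 0 without L6 or L33 and 3 without L36. DESeq2 gave 11 members at an unadjusted p under 0.05 and limma voom 10, and neither called one. The shares of all genes at that level are not given here for these tools or for the fits with 1 heart left out. The fold change was positive for 13 members and negative for 25, where 47.5% of all genes were positive, with a median of -0.095 on the log2 scale against -0.0056 over all genes. By role it was positive for 3 of 8 ligands, 1 of 9 receptors, 1 of 6 SMADs, 3 of 7 antagonists and 5 of 8 targets. In whole tissue, fewer cells of a type and less RNA per cell cannot be told apart.

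Among the ligands, Bmp2, which drives valve formation in the embryo, had a lowest, median and highest level of 1.33, 1.95 and 2.53 CPM in F11 hearts, against 1.74, 2.66 and 3.16 CPM in GFP hearts. All 7 F11 hearts lay below the GFP median, but the groups overlapped. Its log2 fold change was -0.44 (SE 0.17) with an adjusted p of 0.294 in edgeR. Bmp7, a ligand linked to brown fat, had 1.54, 2.00 and 2.72 CPM in F11 hearts and 1.69, 1.77 and 2.37 CPM in GFP hearts, with a log2 fold change of 0.14 (SE 0.14) and an adjusted p of 0.750. The groups covered nearly the same range. Bmp10 ranged from 0.718 to 456 CPM in F11 hearts and from 0.501 to 777 CPM in GFP hearts, and its log2 fold change of -0.79 had an SE of 1.28. Bmp6 had 32.0 to 51.3 CPM in F11 hearts and 39.2 to 45.8 CPM in GFP hearts. Of the 7 F11 hearts 5 lay below every GFP heart, while L33 lay above them all.

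The receptors had small, mostly negative fold changes. Acvr2a, a type II receptor shared with activins, had 29.2, 32.5 and 34.3 CPM in F11 hearts and 32.5, 35.2 and 39.99 CPM in GFP hearts, and its log2 fold change was -0.13 (SE 0.053) with an adjusted p of 0.317. All 7 F11 hearts lay below the GFP median, and 3 of them below every GFP heart. The type I receptor Acvr1 had 15.5, 17.0 and 20.1 CPM in F11 hearts and 17.4, 18.8 and 23.0 CPM in GFP hearts, with a log2 fold change of -0.16 and an adjusted p of 0.358.

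Smad1 and Smad5, the transducers that the type I receptors activate, showed a similar picture. Smad1 had 14.6, 16.2 and 16.7 CPM in F11 hearts and 16.5, 17.1 and 17.7 CPM in GFP hearts. All 7 F11 hearts lay below the GFP median and 4 below every GFP heart, so the groups met over a narrow range only. Its log2 fold change was -0.097 (SE 0.047, adjusted p 0.407). Smad5 had 52.3, 59.0 and 62.0 CPM in F11 hearts against 57.9, 63.6 and 66.8 CPM in GFP hearts, with a log2 fold change of -0.10 (SE 0.043) and an adjusted p of 0.333. Here too every F11 heart was below the GFP median, but only 1 lay below every GFP heart.

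Among the antagonists, Fst, which encodes follistatin, had the lowest p of all members. It had 0.616, 0.891 and 0.943 CPM in F11 hearts and 0.842, 1.21 and 2.54 CPM in GFP hearts, a log2 fold change of -0.74 (SE 0.24) with an adjusted p of 0.164. The highest value was that of the GFP heart L1, and without L1 the fold change was -0.45 with an adjusted p of 0.348. Bambi, a decoy receptor without a kinase, had 10.6, 13.6 and 15.3 CPM in F11 hearts and 12.6, 16.2 and 19.7 CPM in GFP hearts, with a log2 fold change of -0.29 (SE 0.10) and an adjusted p of 0.229. All 7 F11 hearts were below the GFP medians of both genes. Chrd, which encodes chordin, went the other way, with 2.98, 3.70 and 4.26 CPM in F11 hearts and 2.58, 2.91 and 3.28 CPM in GFP hearts. All 7 F11 hearts were above its GFP median and 5 above every GFP heart, for a log2 fold change of 0.27 (SE 0.11) and an adjusted p of 0.304.

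The Id genes encode inhibitors of basic helix-loop-helix factors and are the usual readout of BMP signalling, and they did not share a direction. Id1 had 25.2, 32.4 and 49.6 CPM in F11 hearts against 23.1, 30.8 and 33.5 CPM in GFP hearts (log2 fold change 0.28, SE 0.15, adjusted p 0.495). Id3 had 32.7, 38.3 and 48.4 CPM in F11 hearts against 32.1, 34.7 and 38.7 CPM in GFP hearts (0.19, SE 0.083, adjusted p 0.365). For each of them 6 of 7 F11 hearts were above the GFP median, and the groups overlapped. Id2 had 6.21, 7.87 and 11.1 CPM in F11 hearts against 8.16, 9.31 and 16.9 CPM in GFP hearts, with a log2 fold change of -0.40 (SE 0.18) and an adjusted p of 0.378. Its highest value came from L1 as well, and without L1 the fold change was -0.22.

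**Figure D1:**
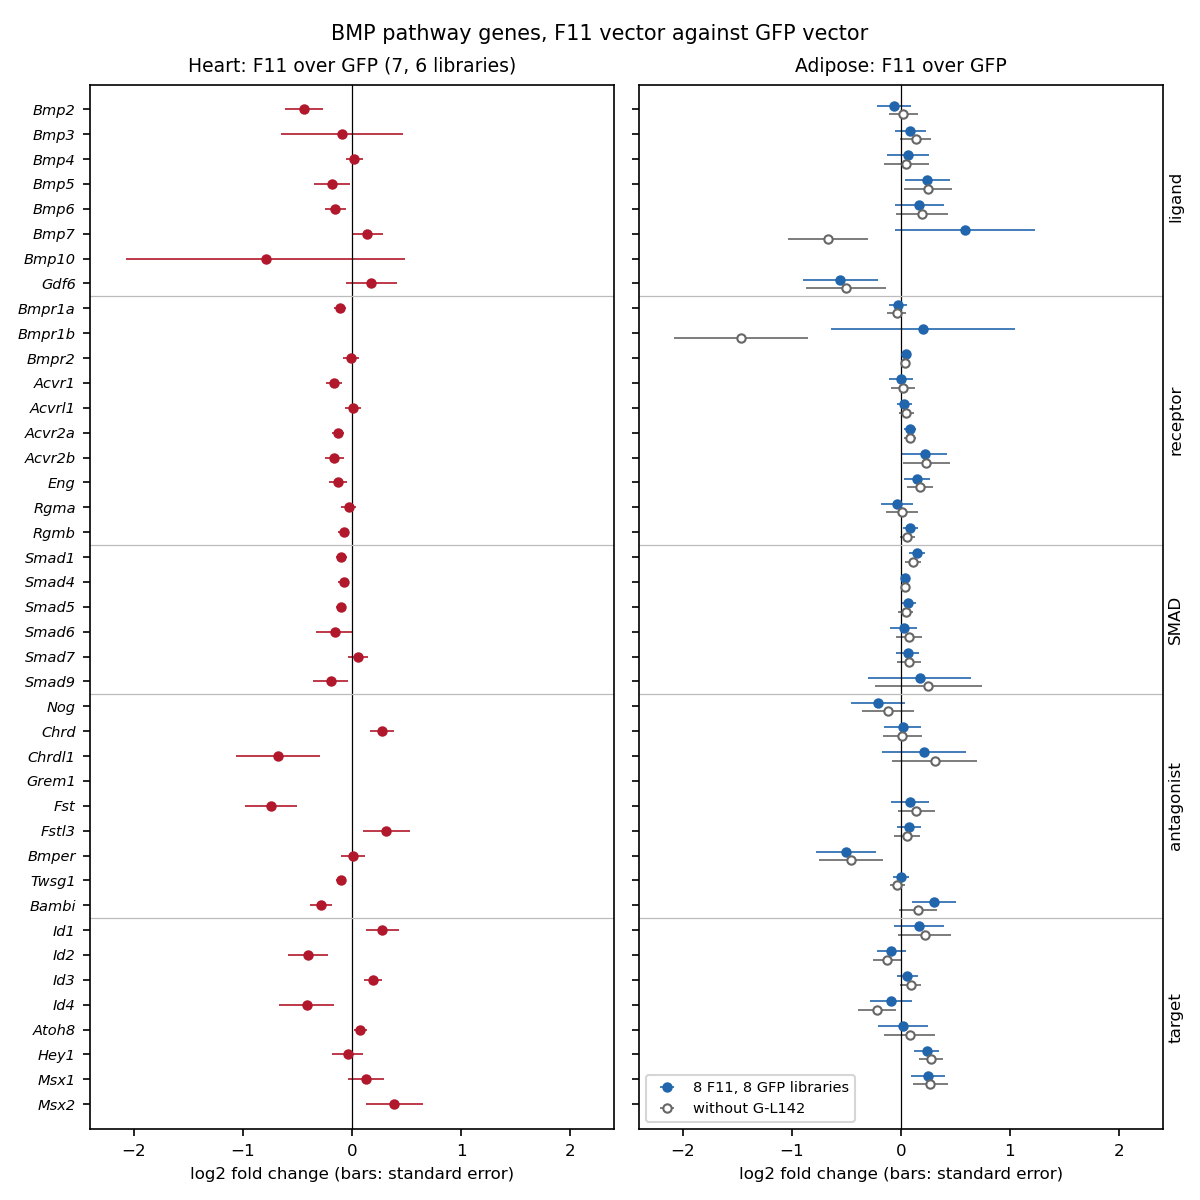
Log2 fold change of F11 over GFP (x axis, bars are standard errors) for each tested BMP pathway gene (y axis, by role), in heart on the left and adipose tissue on the right, where open grey points leave out the library G-L142. Most points lie within a log2 fold change of 0.5 of 0, and Bmp7 and Bmpr1b in adipose tissue change sign when G-L142 is left out.

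Other transcripts differed between the heart groups beside these values. Cardiomyocyte markers summed to 74193 to 85395 CPM in F11 hearts and 65930 to 70220 CPM in GFP hearts, without overlap, and 9 of the 10 had a positive fold change, 1 of them called. Mesothelial markers summed to 10.8 to 29.5 CPM in F11 hearts and 18.3 to 44.9 CPM in GFP hearts, and 0 of 11 tested had a positive fold change. Core clock genes summed to 831 to 998 CPM in F11 hearts and 654 to 779 CPM in GFP hearts, and 8 of the 12 were called, 5 higher and 3 lower. Fibroblast markers summed to 1125 to 1321 CPM in F11 hearts and 1151 to 1462 CPM in GFP hearts, with overlap, and 1 of 8 had a positive fold change. Adipocyte markers summed to 482 to 785 CPM in F11 hearts and 507 to 735 CPM in GFP hearts. Their sums overlapped too, but 1 of 7 tested had a positive fold change and 4 were lower at an unadjusted p under 0.05, with a median log2 fold change of -1.46. Of 7 atrial markers tested, Bmp10 among them, 0 had a positive fold change, with a median of -0.37, and 3 of 10 macrophage markers had one, with a median of -0.062. Their part in the members' values was not tested.

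In adipose tissue no member passed the threshold between the vectors either. Of 38 members tested, all but Bmp10, Grem1 and Msx2, 0 were called in edgeR, where 0% of all 15229 genes were. At an unadjusted p under 0.05 there were 0 members and 4.19% of all genes in edgeR. DESeq2 gave 2 members and limma voom 6 at that level, and the shares of all genes with these tools are not given here. The fold change was positive for 30 members and negative for 8, where 49.8% of all genes were positive, with a median of 0.067 on the log2 scale against -0.00071 over all genes. All 6 SMADs were on the positive side. With 1 adipose library left out, the positive members numbered between 24 and 31. Without G-L142, 29 members were positive and 9 negative, where 47.3% of all genes were positive, 0 were called, and Hey1 and Bmpr1b had an unadjusted p under 0.05, where 4.76% of all genes did. Without the 4 libraries with hepatocyte transcripts 0 of 38 tested members were called, and 3 had an unadjusted edgeR p under 0.05. The shares of all genes in that fit are not given here. The 3 were Hey1, Smad1 and Bmper, with log2 fold changes of 0.24, 0.20 and -0.62 and an unadjusted edgeR p of 0.0243, 0.0461 and 0.0455. Beside these values, the fold change was positive for 11 of 12 endothelial, 6 of 8 mural, 1 of 8 fibroblast, 0 of 10 macrophage and 0 of 7 B cell markers. Of the mural markers 3 were higher at an unadjusted p under 0.05, and their median log2 fold change was 0.25. It was also positive for 0 of 9 cardiomyocyte markers, whose sum was 6711 CPM in G-L140 and at most 135.6 CPM in the other adipose libraries, and for 7 of 8 hepatocyte markers. The endothelial sum was 1021 to 1745 CPM with F11 and 1017 to 1590 CPM with GFP, and the macrophage sum 850.0 to 3586 CPM with F11 and 674 to 3409 CPM with GFP. Their part in the members' values was not tested.

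Smad1 had 22.5, 26.9 and 29.9 CPM in F11 adipose tissue and 20.3, 24.5 and 27.4 CPM in GFP adipose tissue, a log2 fold change of 0.15 (SE 0.075) with an adjusted p of 0.9996. Smad5 had 57.4, 67.8 and 72.4 CPM with F11 against 58.4, 61.5 and 72.9 CPM with GFP, with a log2 fold change of 0.068. Of the 8 F11 libraries, 6 lay above the GFP median for each, and the ranges overlapped. Hey1, a target that represses transcription in endothelium, had 7.20, 8.94 and 12.1 CPM with F11 and 6.88, 7.62 and 11.1 CPM with GFP. Its log2 fold change of 0.24 (SE 0.11) had the lowest p of the members, 0.0545 in edgeR before adjustment and 0.9996 after it, and 7 of 8 F11 libraries were above the GFP median. Msx1, a homeobox target, had 1.76, 1.97 and 2.50 CPM with F11 and 1.11, 1.68 and 2.55 CPM with GFP. All 8 F11 libraries were above its GFP median, none above every GFP library, and its log2 fold change was 0.25.

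Bmper, which binds BMPs and can act for or against them, had 11.1, 15.1 and 25.6 CPM with F11 and 9.41, 18.9 and 42.4 CPM with GFP, a log2 fold change of -0.50 (SE 0.28). Its highest level was that of G-L140, and without that library the fold change was -0.31. Acvr2a had 23.1, 25.9 and 29.4 CPM with F11 and 22.4, 24.8 and 27.9 CPM with GFP, and 7 of 8 F11 libraries were above the GFP median for a log2 fold change of 0.087. The Id genes had log2 fold changes of 0.17 for Id1, -0.086 for Id2 and 0.060 for Id3. Id1 had 12.5, 24.2 and 45.7 CPM with F11 and 15.2, 19.8 and 31.7 CPM with GFP. The F11 range enclosed the GFP range. The highest F11 library for Id1 was G-L145, one of those with hepatocyte transcripts. The log2 fold change of Id1 was -0.018 without that library and 0.029 without all 4 of them.

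The values of Bmp7 and of the type I receptor Bmpr1b also turned on a few adipose libraries. Bmp7 had 0.659, 1.36 and 13.9 CPM with F11 and 0.908, 1.32 and 4.31 CPM with GFP, and Bmpr1b had 0.365, 0.621 and 11.2 CPM with F11 and 0.407, 0.586 and 5.88 CPM with GFP. The highest F11 value of both was in G-L142, the library with epididymis transcripts, and the highest GFP value of both in G-L138. The log2 fold change of Bmp7 was 0.59 (SE 0.64), and -0.67 (SE 0.37) without G-L142. That of Bmpr1b was 0.20, and -1.47 without G-L142, with an unadjusted edgeR p of 0.0298. Epcam, an epithelial transcript, stood at 60.5 CPM in G-L142, 17.2 CPM in G-L138, 11.7 CPM in G-L140 and 5.69 CPM in G-L135, and at or below 0.767 CPM in the other adipose libraries. These 4 libraries also held the 4 highest levels of Bmp7 and of Bmpr1b.

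**Figure D2:**
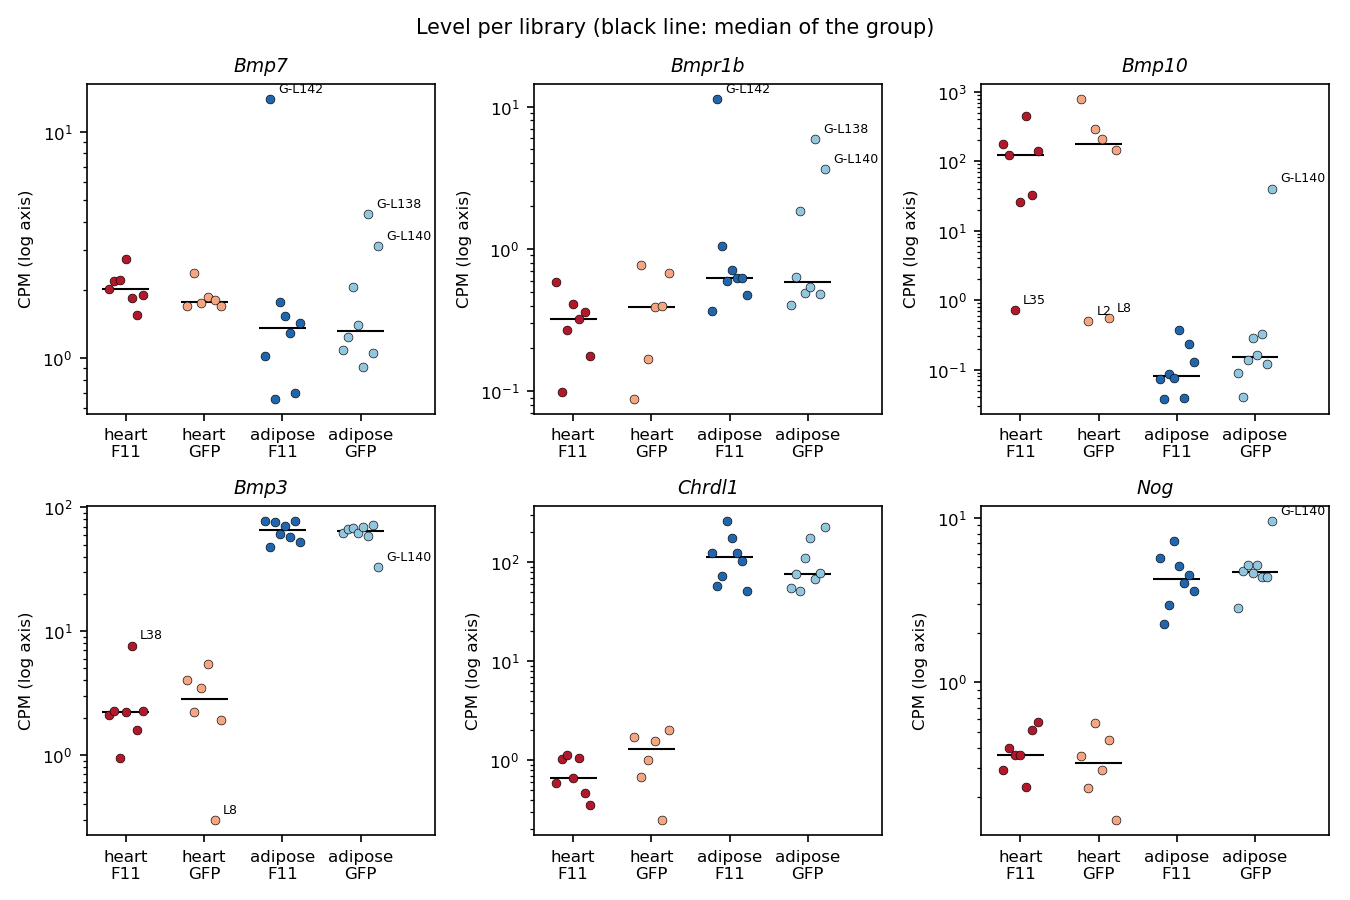
Level of 6 members in each library, in CPM on a log axis, with the 4 groups along the x axis, 1 point per library and a black line at the median. Bmp7 and Bmpr1b are high in G-L142, G-L138 and G-L140, Bmp10 is near 0.5 to 0.7 CPM in 3 hearts and 40.5 CPM in G-L140, and Bmp3, Chrdl1 and Nog separate heart from adipose tissue.

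The difference of the vector effects, heart minus adipose tissue, was tested as an interaction in a fit over all libraries. Of 40 members tested 0 were called, where 0.0242% of all genes were. At an unadjusted p under 0.05 there were 4 members, all lower, where 3.72% of all genes were lower and 3.71% higher. They were Fst with -0.81 (SE 0.30), Smad1 with -0.24 (SE 0.086), Acvr2a with -0.21 (SE 0.080) and Bambi with -0.58 (SE 0.23) on the log2 scale, and their adjusted p in edgeR lay between 0.447 and 0.517. DESeq2 gave 5 members and limma voom 13 at the unadjusted level. The 3.72% and 3.71% come from edgeR, and the shares of all genes with the other tools are not given here. For Bmp10 the difference was 4.34 (SE 2.33) with all libraries and -0.57 without G-L140, which held 40.5 CPM of it.

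Heart and adipose tissue differed in many members under each vector. With the F11 vector 7 members were higher in heart and 9 lower, at an adjusted p under 0.05 and a fold of at least 2, of 39 tested, where 19.7% of all genes were higher and 24.3% lower. With the GFP vector, in libraries not shared with the first comparison, it was again 7 higher and 9 lower, of 38 tested, where 18.9% of all genes were higher and 24.8% lower. Under both vectors 6 members were higher and 8 lower, against 17.9% and 22.7% of all genes, so the members' shares lay near those of all genes. Bmp10 fell under the count filter within adipose tissue, and Nog and Bmpr1b fell under it within heart, so they were tested between the tissues through their higher tissue alone, and their direction here is no support for these counts. Without G-L142 the counts under F11 were 6 and 8, where 20.5% of all genes were higher and 23.2% lower. Each tissue was sequenced in libraries of its own, so tissue and library preparation cannot be told apart. Calls near the 2-fold limit also depend on the scaling between tissues whose mitochondrial shares differ.

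Among the ligands, Bmp3, which antagonises other BMPs in bone, was lower in heart. It had 0.943, 2.21 and 7.64 CPM in F11 hearts against 47.5, 65.8 and 77.6 CPM in F11 adipose tissue, and 0.298, 2.86 and 5.45 CPM in GFP hearts against 32.9, 64.5 and 72.2 CPM in GFP adipose tissue. No heart reached the lowest adipose library, and the log2 fold change was -4.52 (SE 0.35) under F11 and -4.38 (SE 0.40) under GFP. Bmp10 had 0.718, 123 and 456 CPM in F11 hearts against 0.0383, 0.0812 and 0.369 CPM in F11 adipose tissue, where the libraries held 1 to 13 counts of it. Its adjusted p was 7.95e-07 in edgeR and 0.386 in limma voom. Having passed the filter through the hearts, it had to be higher there, and the fitted log2 fold change of 9.94 (SE 1.16) stands over a group near 0. Under GFP it fell under the count filter and was not tested. Bmp6, the ligand that controls hepcidin in the liver, had log2 fold changes of 0.54 under F11 and 0.81 under GFP, and Bmp7 of -0.40 and -0.014, or 0.82 under F11 without G-L142. For Bmp4, a ligand of adipocyte commitment, they were 0.025 and 0.022.

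Of the receptors, Acvr2b, a type II receptor, was higher in heart, with 5.23, 6.16 and 7.43 CPM in F11 hearts against 1.60, 1.81 and 2.59 CPM in F11 adipose tissue. In the GFP libraries it had 6.08, 6.81 and 7.75 CPM in heart against 1.03, 1.61 and 2.67 CPM in adipose tissue. The log2 fold change was 1.70 (SE 0.13) under F11 and 2.03 (SE 0.20) under GFP, without overlap. Bmpr1b was lower in heart, by -2.58 (SE 0.85) under F11 and -2.03 (SE 0.75) under GFP, but by -0.94 under F11 without G-L142, so its call under F11 rested on that library, and by -1.43 and without a call under GFP when G-L138 was left out. The main BMP receptors Bmpr1a and Bmpr2 had log2 fold changes of 0.34 and 0.72 under F11 and 0.38 and 0.72 under GFP, Acvrl1 of -0.72 and -0.75, and Eng of 0.71 and 0.94. These passed the adjusted p but not the 2-fold limit.

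Of the 6 SMADs 3 were higher in heart under both vectors and 0 were lower, where 17.9% and 22.7% of all genes were, and the 3 were the inhibitors Smad6 and Smad7 and the transducer Smad9. Smad7 had 27.1, 32.0 and 36.3 CPM in F11 hearts against 6.53, 9.26 and 11.7 CPM in F11 adipose tissue, and 24.9, 29.2 and 37.3 CPM in GFP hearts against 8.05, 9.07 and 10.4 CPM in GFP adipose tissue. No heart overlapped an adipose library under either vector, and the log2 fold change was 1.80 (SE 0.11) and 1.76 (SE 0.091). Smad9 had 3.90, 4.25 and 5.52 CPM in F11 hearts against 0.260, 1.17 and 2.39 CPM in F11 adipose tissue, and 3.51, 4.996 and 7.25 CPM in GFP hearts against 0.307, 0.840 and 3.36 CPM in GFP adipose tissue. Its log2 fold change was 1.79 (SE 0.31) under F11 and 2.12 (SE 0.44) under GFP, and the highest GFP adipose level was that of G-L140. Smad6 had 15.2, 19.0 and 22.2 CPM in F11 hearts against 6.84, 9.87 and 11.5 CPM in F11 adipose tissue, with a log2 fold change of 1.003 (SE 0.12), which was 0.94 without G-L142 and then under the 2-fold limit. Its call was lost in 8 of the 15 fits with 1 F11 library left out. Under GFP it was 1.14 (SE 0.16), and 0.99 without L1. The log2 fold change of Smad1 was -0.68 under F11 and -0.49 under GFP, and that of Smad5 was -0.11 and 0.012.

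Of the 8 antagonists tested, 5 were lower in heart under F11 and 6 under GFP, where 24.3% and 24.8% of all genes were, and 2 were higher under each, against 19.7% and 18.9%. Nog is among those lower and passed the filter through adipose tissue. Chrdl1 had 0.351, 0.667 and 1.12 CPM in F11 hearts against 51.2, 114 and 261 CPM in F11 adipose tissue, and 0.249, 1.28 and 2.03 CPM in GFP hearts against 50.7, 76.8 and 226 CPM in GFP adipose tissue. The log2 fold change was -7.26 (SE 0.45) and -6.41 (SE 0.53), and every adipose library was far above every heart. Nog, which encodes noggin, had 0.230, 0.359 and 0.571 CPM in F11 hearts against 2.26, 4.25 and 7.27 CPM in F11 adipose tissue, a log2 fold change of -3.43 (SE 0.27) under F11 and -3.90 (SE 0.33) under GFP. Fst was lower in heart by -2.68 (SE 0.19) and -1.91 (SE 0.25), Bmper by -1.92 (SE 0.19) and -2.47 (SE 0.31), and Chrd by -1.07 (SE 0.15) and -1.37 (SE 0.15). The call of Chrd under F11 was lost without G-L144. Twsg1, which binds BMPs together with chordin, and Bambi were higher in heart. Bambi had 10.6, 13.6 and 15.3 CPM in F11 hearts against 1.99, 3.82 and 6.24 CPM in F11 adipose tissue, and its log2 fold change was 1.83 (SE 0.19) under F11 and 2.37 (SE 0.12) under GFP. Twsg1 had log2 fold changes of 1.03 (SE 0.059) and 1.09 (SE 0.063), and under F11 it was 0.997 without G-L143. Among the targets only Id4 was called under both vectors, lower in heart by -1.84 (SE 0.23) and -1.57 (SE 0.24), while Id1 had 0.57 and 0.41, Id2 had -0.92 and -0.65, and Id3 had -0.35 and -0.52.

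Some members passed under 1 vector only, a difference that was not tested. Bmp2 was lower in heart under F11, by -1.0004 with an SE of 0.18, and had -0.68 under GFP, Msx1 was higher under GFP, by 1.03, and had 0.95 under F11, and Fstl3, a follistatin relative, was lower under GFP, by -1.10, and had -0.80 under F11. These calls turned on single libraries: with 1 library left out, that of Bmp2 was lost in 6 of 15 fits, that of Msx1 in 4 of 14 and that of Fstl3 in 2 of 14. The others had no call between the tissues. Smad4, the shared partner of the transducers, had 48.9 to 66.3 CPM in F11 hearts against 38.1 to 43.8 CPM in F11 adipose tissue, without overlap, and log2 fold changes of 0.60 under F11 and 0.67 under GFP. The co-receptor Rgma had 0.47 and 0.42, and its relative Rgmb, with 27.2 to 31.9 CPM in F11 hearts and 26.6 to 33.6 CPM in F11 adipose tissue, had -0.011 and 0.10. The ligand Gdf6 had 0.564 to 1.53 CPM in F11 hearts and 0.410 to 1.86 CPM in F11 adipose tissue, and Bmp5 had 1.35 to 2.33 CPM and 1.31 to 2.24 CPM, so both overlapped between the tissues. Grem1, which encodes gremlin, passed the filter in the interaction only and had 0 to 0.176 CPM in F11 hearts, 0 to 0.243 CPM in GFP hearts, 0 to 1.43 CPM in F11 adipose tissue and 0.0403 to 0.966 CPM in GFP adipose tissue. Msx2, a homeobox target, was tested in heart only, where it had 0.410 to 0.853 CPM with F11 and 0.249 to 0.628 CPM with GFP.

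**Figure D3:**
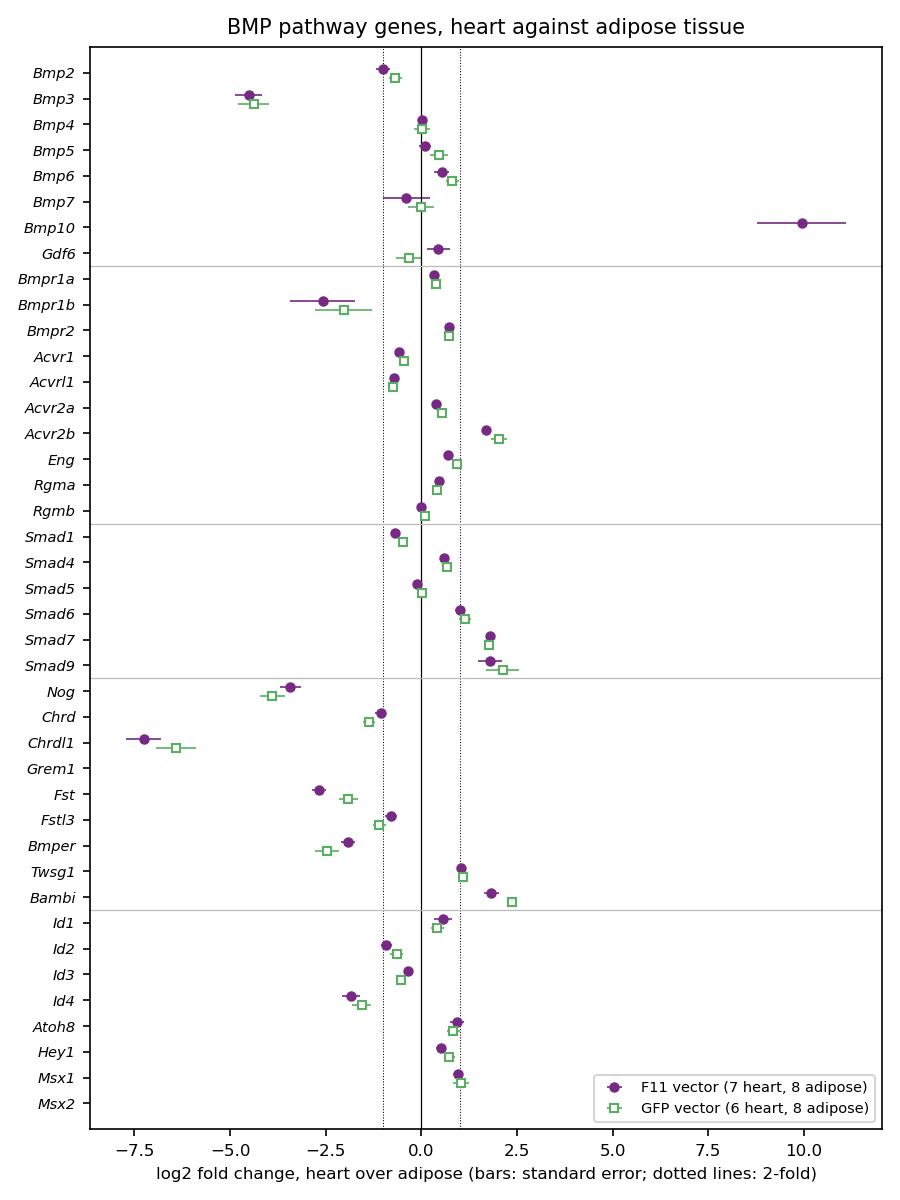
Log2 fold change of heart over adipose tissue (x axis, bars are standard errors, dotted lines at 2-fold) for each tested BMP pathway gene (y axis, by role), under the F11 vector as filled circles and the GFP vector as open squares. Chrdl1, Bmp3 and Nog lie furthest to the left under both vectors and Bmp10 furthest to the right under F11.

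Bmp10 and Bmp3 varied widely between hearts, and Bmp3 followed atrial transcripts. Bmp10 stood at 456, 176.5, 142.5, 123, 32.6, 25.9 and 0.718 CPM in the F11 hearts and at 777, 292.7, 207, 143.9, 0.547 and 0.501 CPM in the GFP hearts. The 3 lowest hearts were L35 with F11 and L8 and L2 with GFP, and they were separated from the other 10 by a wide gap, so no correlation over all hearts is given for this gene. Summed over 6 atrial markers other than Bmp10, L35 had 455 CPM, L8 had 72.8 CPM and L2 had 1102 CPM, while the hearts with the most Bmp10, L38 with F11 and L1 with GFP, had 3643 and 3906 CPM. At similar atrial sums the level of Bmp10 could differ widely. L9 held 143.9 CPM of it at a sum of 1036 CPM, against 0.501 CPM in L2 at 1102 CPM. L39 held 32.6 CPM of it at a sum of 393 CPM, against 0.718 CPM in L35 at 455 CPM. The level of Bmp3 followed that sum over the 13 hearts, as deviations from the group mean of log2(CPM + 1), with Pearson's r 0.91 (permutation p 6e-05) and Spearman's rho 0.90 (permutation p 0.00017). The adjusted permutation p of r was 0.00203 over 304 relations between members and marker sums, a family chosen after seeing the data, and r was 0.87 without L8 and L1, the hearts farthest from the median. Bmp3 also followed the mesothelial sum, with r 0.83 and rho 0.80 (adjusted permutation p 0.0146 and 0.0278).

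**Figure D4:**
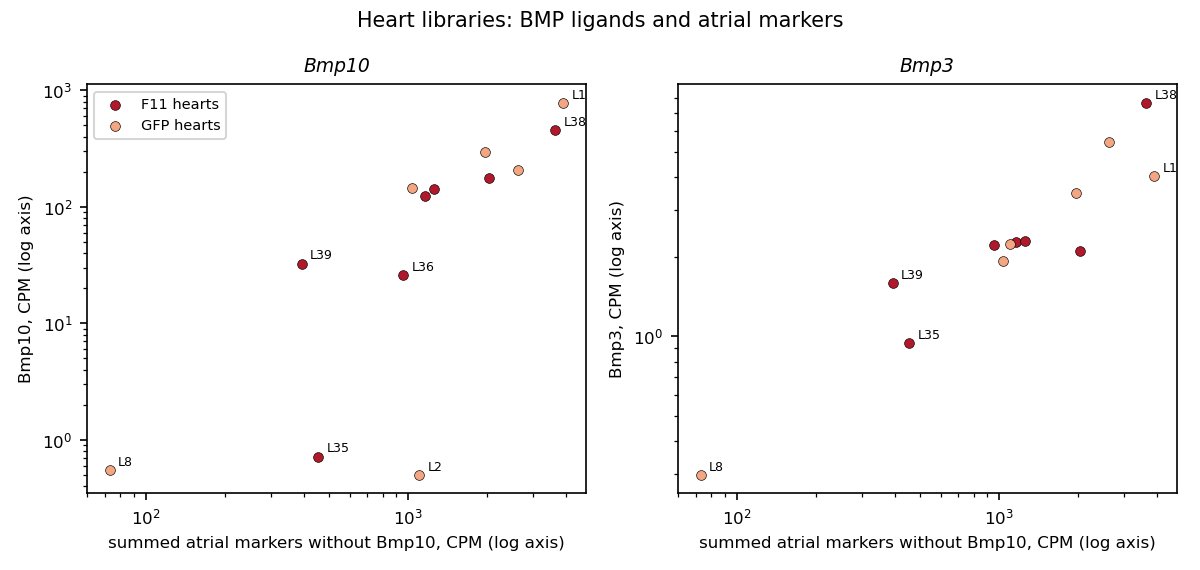
Level of Bmp10 (left) and Bmp3 (right) in each heart library, in CPM on a log axis, against the summed level of 6 atrial markers without Bmp10, in CPM on a log axis, with F11 hearts dark and GFP hearts light. Bmp3 climbs with the atrial sum, while L2 has 0.501 CPM of Bmp10 at an atrial sum of 1102 CPM and L9 has 143.9 CPM of it at 1036 CPM.

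Within each tissue, several members went with Id1 from library to library, and in adipose tissue most of these relations no longer passed the threshold without the libraries with hepatocyte transcripts. The relations were computed as Pearson's r and Spearman's rho of deviations from the group mean of log2(CPM + 1), with 100000 permutations within groups, and adjusted over 20 relations. In adipose tissue, over 16 libraries, Id1 went with Atoh8, a helix-loop-helix factor that BMP9 and BMP10 induce in endothelium, at r 0.88 (adjusted permutation p 0.0012) and rho 0.84 (0.0054). It also went with Id3 at r 0.82 (0.0037) and rho 0.80 (0.00647), with Eng at r 0.79 (0.00507) and rho 0.74 (0.00992), and with Hey1 at r 0.73 (0.007) and rho 0.78 (0.00647), each an adjusted permutation p. Without G-L145 and G-L148, the libraries farthest from the median of Id1, these 4 values of r were 0.80, 0.67, 0.67 and 0.64. Smad6 had r 0.63 (adjusted permutation p 0.0363) and 0.44 without that pair. Bambi had r 0.54 (adjusted permutation p 0.123) and 0.20 without the pair. Its r was higher without G-L142, the adipose library with the most Bambi at 6.24 CPM, and that value is given in the closing section. Acvrl1, the endothelial type I receptor for BMP9 and BMP10, had r -0.16 (adjusted permutation p 0.627) and rho 0.0029. For Id2 the values were r -0.32 (adjusted permutation p 0.354) and rho -0.39 (0.223). Over the 12 libraries without G-L136, G-L137, G-L145 and G-L146, chosen after seeing the data, Atoh8 kept an adjusted permutation p under 0.05, with r 0.85 (0.0131) and rho 0.79 (0.0385). Without them Id3 had r 0.65 (adjusted permutation p 0.119), Eng r 0.63 (0.133), Smad6 r 0.61 (0.142) and Hey1 r 0.48 (0.268), while Id2 went against Id1 at r -0.85 (0.0131) and rho -0.86 (0.0205).

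In heart, over 13 libraries, Id1 went with Id3 at r 0.83 (adjusted permutation p 0.007) and rho 0.75 (0.0224), with Acvrl1 at r 0.66 (0.0239) and rho 0.78 (0.00992), and with Hey1 at r 0.66 (0.0239) and rho 0.66 (0.0533). Without L40 and L36, the farthest from the median of Id1, these values of r were 0.64, 0.75 and 0.54. Atoh8 had r 0.51 (adjusted permutation p 0.208) and Eng r 0.35 (0.354) in heart. Id2 had r -0.06 and Smad6 r -0.01.

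**Figure D5:**
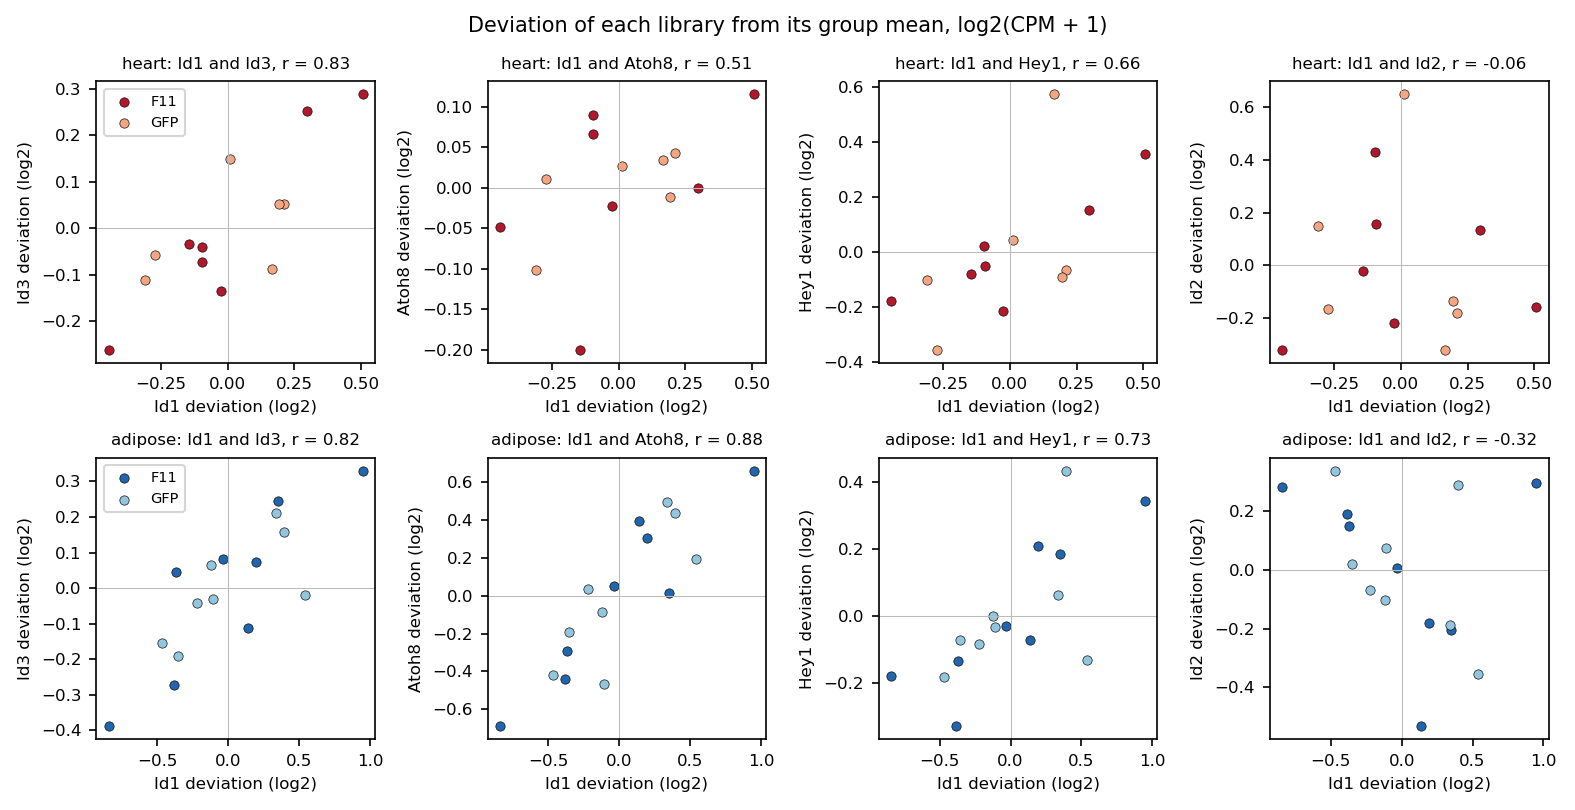
Deviation of each library from its group mean on the log2(CPM + 1) scale, for Id1 (x axis) against Id3, Atoh8, Hey1 and Id2 (y axes), with hearts in the upper row and adipose libraries in the lower row, F11 dark and GFP light. Id3 and Atoh8 climb with Id1 in adipose tissue, at r 0.82 and 0.88 over all 16 libraries, or 0.65 and 0.85 without the 4 with hepatocyte transcripts. Id2 has r -0.32 there, or -0.85 without those 4, and -0.06 in heart.

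The same members also went with markers of cell types, a family of 304 relations added after seeing the data, of which 50 had an adjusted permutation p under 0.05, 8 in heart and 42 in adipose tissue. In adipose tissue the sum of 12 endothelial markers went with Eng at r 0.94 and rho 0.91 (adjusted permutation p 0.00076 and 0.00101) and with Bmp6 at r 0.92 and rho 0.90 (0.00076 and 0.00182). The sum of 10 adipocyte markers, 12368 to 29257 CPM with F11 and 15720 to 30567 CPM with GFP, went with Smad9 at r 0.88 and rho 0.92, with Chrdl1 at r 0.88 and rho 0.94, and with Id1 at r 0.87 and rho 0.87 (adjusted permutation p of r 0.00076, 0.00122 and 0.00076). Id1 also went with the endothelial sum, at r 0.76 and rho 0.74 (adjusted permutation p 0.0146 and 0.0248), and against the fibroblast sum, at r -0.80 and rho -0.77 (0.00213 and 0.0143). Without G-L140 and G-L142 these values of r for Id1 were 0.85 with adipocyte, 0.84 with endothelial and -0.85 with fibroblast markers. Without the 4 libraries with hepatocyte transcripts they were 0.91, 0.65 and -0.75 (adjusted permutation p 0.0126, 0.159 and 0.0929), while Eng with endothelial markers had r 0.95 (0.00152). In heart, Hey1 and Id1 went with the endothelial sum at r 0.83 and 0.79 and rho 0.81 and 0.80 (adjusted permutation p of r 0.00697 and 0.00753). The marker sums and the relations among members come from the same libraries, and the part of the one in the other was not tested.

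Of a list of further BMP pathway genes, 48 of 49 were found, and no gene of it was called between the vectors. In heart 37 were tested, and the lowest p belonged to Acvr1b, an activin type I receptor, with 27.9 to 32.4 CPM in F11 hearts and 25.6 to 27.7 CPM in GFP hearts, without overlap, for a log2 fold change of 0.16 (SE 0.041) and an adjusted p of 0.0630. Next was Sost, which encodes the BMP and WNT antagonist sclerostin, with 0.513 to 1.15 CPM in F11 hearts and 0.298 to 4.18 CPM in GFP hearts (log2 fold change -1.58, SE 0.41, adjusted p 0.0951). In adipose tissue 38 were tested, and the lowest p belonged to Smurf2 and Heyl, with log2 fold changes of 0.081 and 0.26 and an adjusted p of 0.9996 each. Between the tissues, among 39 tested, 9 genes were higher in heart and 10 lower with the F11 vector, and 7 and 10 with the GFP vector. Of all genes 19.7% were higher and 24.3% lower with F11, and 18.9% and 24.8% with GFP. Hfe2, which encodes the BMP co-receptor hemojuvelin, averaged 237 ± 10.3 CPM in F11 hearts and 1.67 ± 2.65 CPM in F11 adipose tissue (SD, n = 7 and 8), with a log2 fold change of 7.11. Acvr1c, an activin-family receptor that is also in the adipocyte marker list, averaged 0.134 ± 0.131 CPM in F11 hearts and 102 ± 30.4 CPM in F11 adipose tissue (SD, n = 7 and 8), with a log2 fold change of -9.44. Further genes higher in heart under both vectors were Inha, Hes1 and Dand5, with log2 fold changes of 2.42, 2.14 and 2.10 under F11, and Gdf3 was among those lower, at -4.68.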

How the data were processed

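The deposited values are estimated counts of genes from kallisto 0.46 on GRCm38.p6, run by the authors per the submitters' processing notes. Per the labels' protocols, miRNeasy RNA was sequenced from Nugen mRNA libraries on a NovaSeq. The strand setting and the way transcripts were summed were not given in the sources used here. Of the members, 7 of 41 overlap another gene, so reads of Eng and Fpgs, for example, may be shared.

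Symbols came from the GENCODE annotation of GRCm38 (35935 of 36558 IDs). Counts were rounded and tested in edgeR 4.0.16 under R 4.3.3 (filterByExpr, TMM, robust quasi-likelihood, two-sided, Benjamini-Hochberg over all genes), with groups from the sample titles. Vector comparisons were fitted per tissue, tissue comparisons per vector, and the interaction over all libraries. Members, lists and tests were chosen with earlier results of these data known. Values are given for pathway readouts, for the 5 lowest p per vector comparison and for the largest folds per role between tissues. Marker relations and the fits without G-L140 or the hepatocyte-marker libraries were added after seeing the data. Alternatives were other size factors, filters and thresholds, totals without mitochondrial transcripts, DESeq2 1.42.0, limma 3.58.1 voom, a fit over all libraries and leaving out libraries. The fits were tested on simulated data. A gene of the further pathway list is left out of the text.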

Additional observations from a re-analysis of the deposited data

Results flagged for a closer look

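In 164 checks of a member in a group of libraries, 22 had a highest or lowest library far from the others by Dixon's criterion. They fell on 17 genes. The criterion flags about 1 of 20 groups when values are normally distributed. CPM need not be so distributed, least of all at low counts, so no excess over that share is read from the 22.

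Of these, 4 were in the GFP adipose library G-L140, the one with cardiomyocyte transcripts. It had the highest Bmp10 of its group at 40.5 CPM, the highest Smad9 at 3.36 CPM and the highest Nog at 9.59 CPM, and the lowest Bmp3 at 32.9 CPM. The F11 adipose library G-L142, with epididymis transcripts, had the highest Bmp7 at 13.9 CPM and the highest Bmpr1b at 11.2 CPM. In other adipose libraries, Gdf6 was highest in G-L148 at 1.86 CPM, Hey1 in G-L136, with hepatocyte transcripts, at 11.1 CPM and Msx2 in G-L138 at 0.322 CPM.

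Among the F11 hearts, L40 had the lowest Smad4, Smad5 and Twsg1, at 48.9, 52.3 and 102 CPM. L38, with the most atrial transcripts of the F11 hearts, had the highest Bmp3 at 7.64 CPM and the highest Bmp10 at 456 CPM. Bmp6 was highest in L33 at 51.3 CPM and Fstl3 in L35 at 10.1 CPM. Among the GFP hearts, L1 had the highest Eng at 298 CPM and the highest Fst at 2.54 CPM, L8 had the highest Bmp6 at 45.8 CPM and the highest Hey1 at 19.6 CPM, L2 had the highest Bmp7 at 2.37 CPM, and L6 had the lowest Msx1 at 1.85 CPM.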

How the results depend on the processing

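No paired analysis was possible because the replicate numbers are library numbers and do not tell which samples share a mouse. If hearts and adipose samples came from the same mice, the tissue comparisons and the interaction left that pairing out. Under the alternatives run, 0 members were called between the vectors in either tissue, also with each library left out in turn. Between tissues, the 7 higher and 9 lower members became 6 to 8 higher and 8 to 9 lower under GFP, and 5 to 8 higher and 7 to 9 lower under F11, with 1 library left out. With the adjusted p alone they were 17 higher and 15 lower under GFP and 18 higher and 15 lower under F11. The shares of all genes under that rule are not given here, and those given above hold for the 2-fold limit only. Without the filter the median of all genes between the tissues lay at -0.13 on the log2 scale.

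Bmp7 changed sign. In adipose tissue its log2 fold change was -0.64 with DESeq2, -0.33 with voom, -0.67 without G-L142 and -0.52 without G-L140 and G-L142, with a range of -0.67 to 0.89 when 1 library was left out. Its tissue difference of the vector effect, -0.41, became 0.74, 0.46, 0.80 and 0.65 under the same settings. Between tissues under F11 it was 0.75 with DESeq2, 0.86 with voom and 0.82 without G-L142, and -0.56 to 0.82 with 1 library left out. Under GFP it was 0.013 with other size factors, 0.014 with DESeq2, 0.35 with voom and 0.17 without G-L140, and -0.12 to 0.27. For Id1 the difference of vector effects, 0.12, was -0.074 with voom and -0.051 without G-L140 and G-L142, and its adipose value ran from -0.018 to 0.27. Smad5 between tissues under GFP was -0.0031 without a filter and ran from -0.0076 to 0.094. In adipose tissue r of Id1 was 0.63 with Smad6 and 0.54 with Bambi, and without G-L142 it was 0.609 and 0.858. Without the 4 libraries with hepatocyte transcripts it was 0.646 with Id3, 0.613 with Smad6, 0.484 with Hey1 and 0.627 with Eng, all then over an adjusted p of 0.05, and -0.845 with Id2, which then passed it. The cause was not tested.

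Counts over all genes in heart, 76 higher and 52 lower, were 226 and 151 with DESeq2, 122 and 79 with voom, 307 in all, 171 of them higher, at a threshold of 0.1, and 13 and 17 in a fit over all libraries. In adipose tissue DESeq2 called 6 genes higher and the fit over all libraries 4. The interaction had 128 higher and 44 lower with DESeq2 and 10 and 14 with voom. Library totals from 15.95 (in units of 1e6 counts) limit the precision of members near 0.1 CPM, such as Grem1 and Msx2.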
